A study of Homo sapiens with 12 samples.

Results

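The genes described here encode the core machinery of autophagy, from the ULK1 kinase complex to the ATG8 proteins and the receptors that carry cargo, together with TFEB and TFE3. They are 36 genes, chosen by symbol from what their proteins do, with earlier results of these data known. All 36 were found among the 34886 gene symbols of the count and TPM tables. The cells were NCI-H446, a long-established line from a human small cell lung cancer. They were treated for 8 h with CAPE, or caffeic acid phenethyl ester, a compound of propolis, at 40 µM in dimethyl sulfoxide (DMSO). Control cells of the same line received an equal volume of DMSO alone. Each group had 3 mRNA libraries, called CAPE 1 to 3 and DMSO 1 to 3, and microRNA libraries of the same line were not used here.

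Autophagy wraps part of the cytoplasm in a double membrane, the autophagosome, and delivers it to the lysosome for breakdown. The ULK1 kinase complex starts the process, a class III phosphatidylinositol 3-kinase (PI3K) complex built on BECN1 marks the membrane with a lipid, and WIPI, ATG2 and ATG9 proteins supply more membrane. A conjugation system then attaches the small ATG8 proteins (the LC3 and GABARAP families) to that membrane lipid, and receptors such as SQSTM1 bind ATG8 proteins on one side and cargo on the other. TFEB and TFE3 are transcription factors of the MiT/TFE family that act on many autophagy and lysosome genes.

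The libraries held 17569997 to 17993349 estimated counts in CAPE and 17770295 to 20917508 in DMSO. DMSO 3 stood apart from the other 5 libraries. It had 16207 genes detected, against 17864 to 18587 elsewhere. Its log2 CPM (counts scaled to library size) correlated with those of any other library at 0.920 at most, while the other 5 correlated with each other at 0.975 or more. Of all genes tested, 2836 were at least 2-fold higher and 2858 at least 2-fold lower in DMSO 3 when set against DMSO 1 and 2 averaged, and genes with few counts per TPM, a measure of short transcripts, were the ones that lay high. The members that passed and the other named genes are therefore given with and without DMSO 3. Whether separate cultures were grown for the 3 libraries of a group is not in the labels, and p-values therefore measure spread among these samples alone, possibly of technical origin.

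Of the markers of small cell lung cancer and epithelium, KRT8 and KRT18 of epithelial cells were abundant in every library, at 403 to 436 TPM in CAPE and 454 to 1058 TPM in DMSO for KRT18. NEUROD1, INSM1, CHGA, SYP and NCAM1, which mark neuroendocrine cells, were at 0.547 TPM or lower in each one, so these 5 were absent or nearly so. UCHL1, another marker of such cells, was at 15.7 to 20.03 TPM in CAPE and 17.4 to 24.3 TPM in DMSO. Of 6 markers of other cell types, CD3E and ALB were at 0 in all 6 libraries, and 3 were higher in every CAPE library than in every DMSO library, led by the collagen gene COL1A1. The 6 summed to 21.5 to 23.1 TPM in CAPE and 4.62 to 14.6 TPM in DMSO, and their part in the results was not tested. In bulk RNA, fewer cells that express a gene and less of its RNA per cell cannot be told apart.

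Without DMSO 3, 12 of the 36 genes rose with CAPE, 5 fell and 19 did not pass the test. The genes that rose included ULK1, the membrane protein ATG9A, the ATG8 gene MAP1LC3B, the receptors SQSTM1, OPTN and TAX1BP1, and both MiT/TFE factors. Those that fell were BECN1, ATG5, ATG16L1, GABARAPL1 and GABARAPL2. The test was edgeR's quasi-likelihood F test with Benjamini-Hochberg adjustment over all genes, and a gene passed at an adjusted p under 0.05. The 12 that rose were 33.3% of the members, beside 20.4% of the 13919 genes tested, and the 5 that fell were 13.9%, beside 20.8%. At a log2 fold change of at least 0.5 in size, 5 members rose (ULK1, ATG16L2, MAP1LC3B, TAX1BP1 and ATG9A), beside 10.2% of all genes, and 0 fell, beside 4.58%. The 0 has the same count under edgeR's unadjusted p at that size, since the lowest log2 fold change of any member was -0.48. The median log2 fold change of the members was 0.05, and over all genes it was 0.00346. The median size of the change, sign ignored, was 0.20 for the members and 0.22 for all genes.

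With all 6 libraries, 1 member rose, ULK1, beside 1.49% of the 13595 genes tested, and 0 fell, beside 0.456%. The other 35 had adjusted p from 0.156 to 0.922 in that fit. On simulated data the same fit recovered 1 of 67 genes changed 2-fold. The simulation spread the variation of this fit evenly over all 6 libraries, whereas in the data DMSO 3 alone stood apart. The recovery is therefore not a measure of what the fit could find here, and not passing in it is not read as no change. At an unadjusted p under 0.05 in edgeR, 3 members were higher and 3 lower with CAPE, and DESeq2 called ULK1 higher and ATG16L1 lower. The sign of the fold change differed between the fits for 13 of the 36 genes. DMSO 3 was at least 2-fold above DMSO 1 and 2 averaged for 9 members and at least 2-fold below it for 4. By CPM, the 3 CAPE libraries lay above all 3 DMSO libraries for 7 members, or 19.4%, beside 21.4% of genes, and below them for 6, or 16.7%, beside 20.6%. By TPM, which divides by transcript length, they lay above for 14 members, or 38.9%, beside 25.8% of genes, and below for 2, or 5.56%, beside 8.17%.

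**Figure D1:**
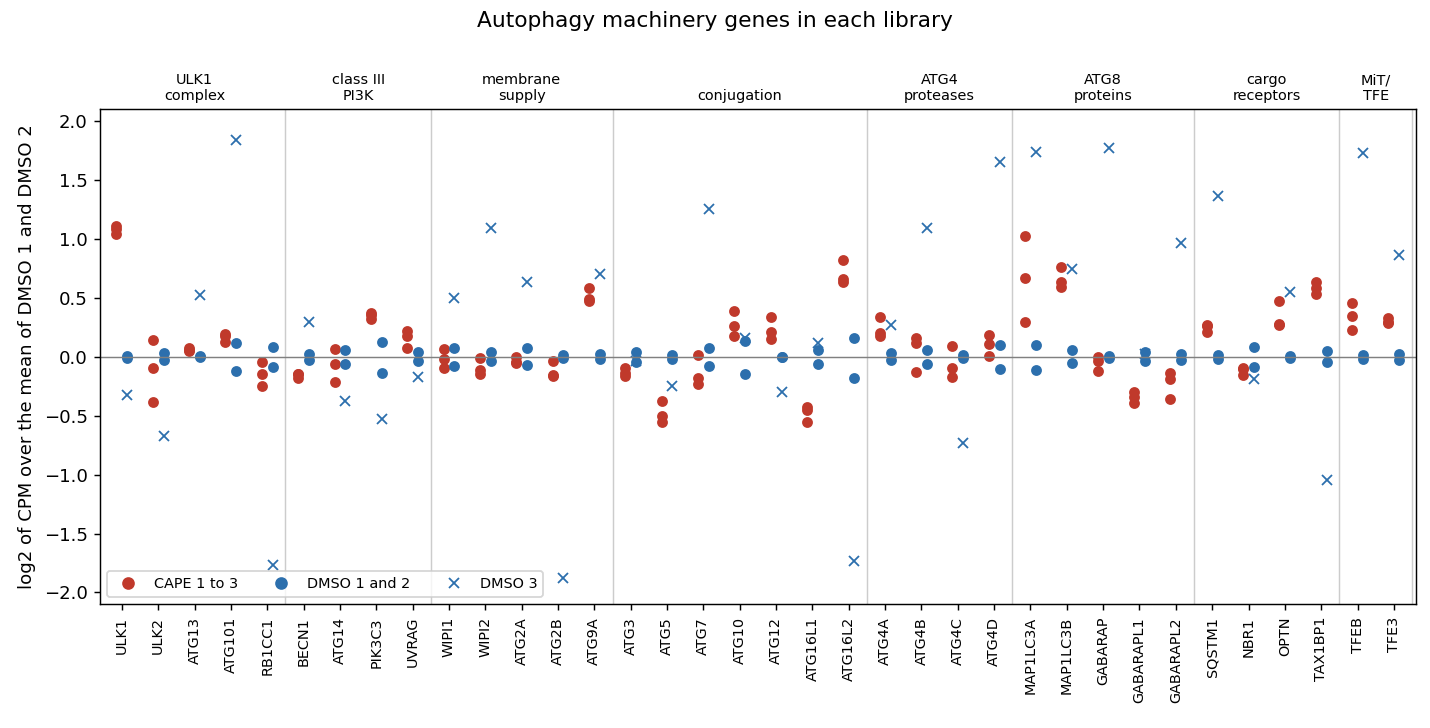
Each point is 1 library's CPM of 1 gene, as log2 of its ratio to the mean of DMSO 1 and 2, with CAPE 1 to 3 in red, DMSO 1 and 2 as blue points and DMSO 3 as blue crosses. Genes run along the horizontal axis by role. The red points of ULK1 lie farthest above 0, and the crosses scatter more widely than any other library, from ATG2B at the bottom to ATG101 at the top.

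Of the ULK1 complex, 1 of 5 genes passed without DMSO 3. ULK1, the kinase that starts autophagosome formation, had 182, 177 and 185 CPM in CAPE 1 to 3, against 85.6, 86.5 and 68.8 CPM in DMSO 1 to 3. All CAPE libraries were above all DMSO libraries, DMSO 3 was the lowest, and the gap was far wider than the spread within either group. ULK1 rose 2.104-fold without DMSO 3 (log2 fold change 1.07 ± 0.05 SE, edgeR adjusted p = 2.02e-10) and by a log2 fold change of 1.18 ± 0.15 SE with all 6 libraries (edgeR adjusted p = 0.0256). Per transcript length it had 69.95, 68.6 and 72.0 TPM in CAPE and 31.97, 30.9 and 9.95 TPM in DMSO. By TPM it ranked 10, 9 and 10 of the 36 genes in CAPE 1 to 3, and 18, 18 and 23 in DMSO 1 to 3. With all 6 libraries ULK1 no longer passed when any library but DMSO 3 was left out (edgeR adjusted p 0.107 to 0.223) or when limma was run on log2 TPM (adjusted p 0.221 to 0.289). Few genes of any kind passed there: 0 to 17 of all genes tested in those edgeR fits and 64 to 120 in limma. The direction of ULK1 was the same in each of these fits.

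The other 4 members of the complex did not pass in either fit. ULK2, the close relative of ULK1, had 11.5, 13.5 and 9.36 CPM in CAPE, against 11.96, 12.5 and 7.66 CPM in DMSO, and the groups overlapped. The ratio of ULK1 to ULK2 in TPM was 16.2, 14.3 and 14.9 in CAPE and 3.44, 6.87 and 7.52 in DMSO. ATG13, which bridges the kinase to its partners, had 87.8, 88.6 and 89.2 CPM in CAPE and 84.7, 85.2 and 122 CPM in DMSO, so CAPE lay just above DMSO 1 and 2 and below DMSO 3. The log2 fold change of ATG13 without DMSO 3 was 0.06 ± 0.05 SE. ATG101, which stabilises ATG13, had 40.5, 38.5 and 39.9 CPM in CAPE and 38.3, 32.4 and 127 CPM in DMSO. DMSO 3 alone was high. RB1CC1, the scaffold also called FIP200, had 74.4, 85.9 and 79.9 CPM in CAPE and 83.4, 93.8 and 26.1 CPM in DMSO, where DMSO 3 alone was low. Without DMSO 3, RB1CC1 passed as lower when edgeR used an offset for transcript length (log2 fold change -0.18, adjusted p = 0.0362). It also passed as lower there when CAPE 2 was left out as well (log2 fold change -0.20, edgeR adjusted p = 0.0365). ULK1 made up 33.0%, 31.9% and 34.3% of the summed TPM of the 5 genes in CAPE and 18.1%, 19.3% and 8.03% in DMSO.

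The 250 bases before the start of ULK1 are shown because it is the 1 member that passed in both fits, with those of MAP1LC3B and ATG9A, members that rose by at least 0.5 on the log2 scale and hold a searched motif. The sequences are from RefSeq (GRCh38.p14), in the direction of the gene, and capitals mark the matches. ULK1 is on the plus strand at chr12:131894372-131894621, MAP1LC3B on the plus strand at chr16:87392086-87392335 and ATG9A on the minus strand at chr2:219229637-219229886.
ULK1: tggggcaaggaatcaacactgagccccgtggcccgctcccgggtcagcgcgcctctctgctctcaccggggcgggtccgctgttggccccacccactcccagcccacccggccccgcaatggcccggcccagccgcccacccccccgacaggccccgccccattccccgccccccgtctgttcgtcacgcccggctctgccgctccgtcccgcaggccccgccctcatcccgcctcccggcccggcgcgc
MAP1LC3B: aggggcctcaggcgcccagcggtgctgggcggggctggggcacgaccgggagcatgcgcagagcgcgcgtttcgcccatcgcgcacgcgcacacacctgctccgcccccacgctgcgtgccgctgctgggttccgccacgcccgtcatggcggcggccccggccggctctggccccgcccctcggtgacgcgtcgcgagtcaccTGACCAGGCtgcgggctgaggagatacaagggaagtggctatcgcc
ATG9A: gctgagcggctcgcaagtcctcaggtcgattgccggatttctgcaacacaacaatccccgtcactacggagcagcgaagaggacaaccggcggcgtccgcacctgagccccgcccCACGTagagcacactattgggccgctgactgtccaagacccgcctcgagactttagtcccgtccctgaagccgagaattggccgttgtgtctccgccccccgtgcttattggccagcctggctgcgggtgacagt

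Of the 36 members, 32 had a window of 250 bases before a start site in the RefSeq promoter table, and 6 motifs were searched on both strands. CACGTG (the E-box) was found in 2 of 32, or 6.25%, beside 6.34% of 35116 windows of the same length. TCACGTGA, the core of the CLEAR element through which TFEB and TFE3 act, was found in 0 of 32, beside 0.854% of all windows. TGACNNNGC, the core of the antioxidant response element, was found in ATG101 and MAP1LC3B, 6.25% of the members, beside 10.9% of windows. In MAP1LC3B it begins at position -46, counted back from the start of the gene. ACGTG, the core of the hypoxia response element, was found in 8 members, or 25%, beside 18.5%, and in ATG9A it begins at -135 on the opposite strand, as CACGT. TGATGCAA (an ATF4 site) and GTAAACA (a FOXO site) were found in 0 of 32, beside 0.772% and 2.98% of windows. The CLEAR core contains the E-box, and the E-box contains ACGTG, so these counts overlap. For ATG101, BECN1, ATG5, ATG4A and TFEB the window lies inside the gene's annotated span, before a start site that is not its outermost one. In ULK1 none of the 6 motifs occurs, which says only that these letters are not in this window.

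The class III PI3K genes were split. PIK3C3, the lipid kinase itself, had 61.2, 63.7 and 62.8 CPM in CAPE, against 44.7, 53.6 and 34.1 CPM in DMSO, and the groups did not overlap. PIK3C3 rose without DMSO 3 (log2 fold change 0.34 ± 0.07 SE, edgeR adjusted p = 0.00157). Its log2 fold change with DMSO 3 was 0.50 ± 0.20 SE and it did not pass. BECN1, the regulatory subunit also called Beclin-1, had 78.7, 80.5 and 80.5 CPM in CAPE, against 87.5, 90.6 and 110 CPM in DMSO. All CAPE libraries were below all DMSO libraries, by a small margin. BECN1 fell without DMSO 3 (log2 fold change -0.16 ± 0.05 SE, edgeR adjusted p = 0.0207), against -0.26 ± 0.15 SE with DMSO 3, which did not pass, and leaving out CAPE 1, CAPE 3 or DMSO 2 as well ended that call. On log2 TPM neither BECN1 nor PIK3C3 passed in limma (adjusted p 0.0907 and 0.206). ATG14 and UVRAG, which direct the complex to early or late steps, did not pass, with log2 fold changes of -0.07 ± 0.09 SE for ATG14 and 0.15 ± 0.08 SE for UVRAG without DMSO 3.

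Among the membrane supply genes 1 of 5 passed. ATG9A, the transmembrane protein whose vesicles seed the growing membrane, had 184, 171 and 173 CPM in CAPE and 125, 121 and 200 CPM in DMSO. CAPE lay above DMSO 1 and 2, but DMSO 3 was the highest of all. ATG9A rose without DMSO 3 (log2 fold change 0.51 ± 0.05 SE, edgeR adjusted p = 1.02e-06), and with DMSO 3 its log2 fold change was 0.24 ± 0.23 SE. In TPM, ATG9A had 122, 128 and 124 in CAPE and 85.8, 73.2 and 46.2 in DMSO. On that scale the groups did not overlap and DMSO 3 was the lowest, the reverse of its place in CPM. The lipid-binding proteins WIPI1 and WIPI2 and the lipid transfer proteins ATG2A and ATG2B had log2 fold changes from -0.12 (ATG2B) to -0.02 (WIPI1) without DMSO 3. ATG2B had 46.2, 50.1 and 46.0 CPM in CAPE and 51.0, 51.8 and 14.0 CPM in DMSO, with DMSO 3 far below the rest. ATG2B passed as lower in limma on log2(TPM + 1) without DMSO 3 (log2 fold change -0.39, adjusted p = 0.0444), but in none of the count tests.

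The conjugation genes moved both ways, with 2 of 7 up and 2 down without DMSO 3, beside 20.4% and 20.8% of all genes. ATG5, which is joined to ATG12 to form the enzyme that places ATG8 on the membrane, had 24.6, 21.8 and 22.5 CPM in CAPE, against 32.3, 31.6 and 26.9 CPM in DMSO. CAPE was below DMSO throughout. ATG5 fell without DMSO 3 (log2 fold change -0.48 ± 0.08 SE, edgeR adjusted p = 0.000188), and with it the log2 fold change was -0.40 ± 0.15 SE and did not pass. ATG12, the small protein joined to ATG5, had 62.3, 59.9 and 68.1 CPM in CAPE, against 53.8, 53.9 and 43.9 CPM in DMSO. The groups did not overlap, and ATG12 rose (log2 fold change 0.23 ± 0.07 SE, edgeR adjusted p = 0.0102 without DMSO 3). With DMSO 3 it was 0.33 ± 0.15 SE and did not pass. Leaving out CAPE 3 beside DMSO 3 also ended the call for ATG12. The ratio of ATG12 to ATG5 in TPM was 4.73, 5.73 and 6.10 in CAPE and 3.46, 2.87 and 4.09 in DMSO.

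ATG16L1, which binds the ATG12 and ATG5 conjugate and brings it to the membrane, had 27.8, 25.5 and 27.3 CPM in CAPE, against 38.8, 35.8 and 40.5 CPM in DMSO. All 3 CAPE libraries were below all 3 DMSO libraries, and DMSO 3 lay with its group. ATG16L1 fell without DMSO 3 (log2 fold change -0.48 ± 0.07 SE, edgeR adjusted p = 0.000115), and with DMSO 3 the log2 fold change was -0.52 ± 0.14 SE (edgeR adjusted p = 0.156). In TPM, ATG16L1 had 19.0, 18.6 and 21.9 in CAPE and 24.1, 19.9 and 9.58 in DMSO, so the groups overlapped, and limma on log2(TPM + 1) without DMSO 3 gave -0.14 (adjusted p = 0.449). Its relative ATG16L2 had 21.2, 21.6 and 24.2 CPM in CAPE, against 15.3, 12.1 and 4.11 CPM in DMSO, and here CAPE was above DMSO throughout. ATG16L2 rose without DMSO 3 (log2 fold change 0.70 ± 0.11 SE, edgeR adjusted p = 0.000142), and with DMSO 3 the log2 fold change was 1.09 ± 0.45 SE (edgeR adjusted p = 0.312). The ratio of ATG16L2 to ATG16L1 in TPM was 1.68, 1.71 and 1.96 in CAPE and 0.912, 0.878 and 0.440 in DMSO, above 1 in every CAPE library and below 1 in every DMSO library.

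The remaining conjugation genes did not pass in either fit. ATG7, the activating enzyme, had 32.8, 31.7 and 37.7 CPM in CAPE and 39.2, 35.3 and 89.0 CPM in DMSO, with DMSO 3 alone high. The carrier enzyme ATG3 had 79.0, 78.0 and 81.5 CPM in CAPE and 84.5, 89.8 and 84.98 CPM in DMSO, a narrow gap with no overlap (log2 fold change -0.14 ± 0.05 SE, edgeR adjusted p = 0.0544 without DMSO 3). ATG10, the carrier of ATG12, had 12.5, 13.2 and 14.5 CPM in CAPE and 10.0, 12.1 and 12.3 CPM in DMSO (log2 fold change 0.27 ± 0.12 SE, edgeR adjusted p = 0.0768 without DMSO 3). For ATG10 the highest DMSO library came close to the lowest CAPE library.

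The ATG4 proteases trim ATG8 proteins before conjugation and free them again afterwards. ATG4A rose without DMSO 3 (22.5, 25.2 and 22.9 CPM in CAPE, 20.3, 19.5 and 24.1 CPM in DMSO, log2 fold change 0.23 ± 0.09 SE, edgeR adjusted p = 0.0420). DMSO 3 lay among the CAPE libraries, the log2 fold change with it was 0.14 ± 0.16 SE and did not pass, and leaving out CAPE 2, CAPE 3, DMSO 1 or DMSO 2 as well ended the call. ATG4B, which had the highest TPM of the 4 in every library, had log2 fold changes of 0.05 ± 0.08 SE without DMSO 3 and -0.40 ± 0.34 SE with it. ATG4C and ATG4D had log2 fold changes of -0.06 ± 0.10 SE and 0.10 ± 0.11 SE without DMSO 3.

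Of the 5 ATG8 genes, 1 rose, 2 fell and 2 did not pass without DMSO 3, where 20.4% of all genes rose and 20.8% fell. MAP1LC3B, which encodes LC3B, the protein most used as a marker of autophagosomes, had 147, 143 and 161 CPM in CAPE and 98.6, 91.3 and 159 CPM in DMSO. CAPE was well above DMSO 1 and 2, while DMSO 3 lay among the CAPE libraries. MAP1LC3B rose 1.58-fold without DMSO 3 (log2 fold change 0.66 ± 0.06 SE, edgeR adjusted p = 4.70e-07), and with DMSO 3 its log2 fold change was 0.37 ± 0.25 SE (edgeR adjusted p = 0.403). In TPM it had 93.2, 90.7 and 101 in CAPE and 59.4, 56.6 and 46.2 in DMSO, and the groups did not overlap. The near-identical gene MAP1LC3B2, with which it could share reads, had 4, 0 and 1 counts in CAPE and 0 in each DMSO library.

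GABARAPL1, an ATG8 protein of the GABARAP family, had 61.6, 57.6 and 59.9 CPM in CAPE, against 73.8, 77.7 and 77.0 CPM in DMSO. All 3 DMSO libraries, DMSO 3 included, were above CAPE. GABARAPL1 fell without DMSO 3 (log2 fold change -0.35 ± 0.06 SE, edgeR adjusted p = 0.000209), and the log2 fold change with all 6 libraries was also -0.35 (± 0.13 SE, edgeR adjusted p = 0.268). In TPM, GABARAPL1 had 58.1, 52.1 and 54.2 in CAPE and 68.3, 72.3 and 33.1 in DMSO, so DMSO 3 was the lowest on that scale. GABARAPL2, also called GATE-16, had 36.2, 31.3 and 35.0 CPM in CAPE, against 40.7, 39.3 and 78.3 CPM in DMSO. CAPE was below DMSO throughout and DMSO 3 stood high. GABARAPL2 fell without DMSO 3 (log2 fold change -0.23 ± 0.07 SE, edgeR adjusted p = 0.0228), against -0.63 ± 0.30 SE with it, which did not pass, and leaving out CAPE 2, DMSO 1 or DMSO 2 as well ended the call.

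GABARAP itself had 93.2, 88.1 and 95.4 CPM in CAPE and 95.02, 96.2 and 326 CPM in DMSO. CAPE overlapped DMSO 1, and DMSO 3 was more than 3 times any other library. Without DMSO 3 its log2 fold change was -0.06 ± 0.05 SE (edgeR adjusted p = 0.412), and with DMSO 3 it was -0.90 ± 0.51 SE. MAP1LC3A, which encodes LC3A, had 34, 26 and 45 counts in CAPE and 23, 20 and 55 counts in DMSO, or 1.80, 1.38 and 2.30 CPM and 1.21, 1.04 and 3.76 CPM. These are too few counts for a firm value, and the log2 fold change of 0.69 ± 0.31 SE without DMSO 3 did not pass (edgeR adjusted p = 0.0906), nor did the value with it of -0.11 ± 0.55 SE. Leaving out CAPE 2 beside DMSO 3 gave MAP1LC3A a log2 fold change of 0.86, which passed (edgeR adjusted p = 0.047).

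The order of the ATG8 genes by TPM differed between the groups. GABARAP was first and MAP1LC3A last in every library. MAP1LC3B ranked 2 in all 3 CAPE libraries, behind GABARAP, but 4 in DMSO 1 and 2 and 3 in DMSO 3. MAP1LC3B made up 19.5%, 20.04% and 20.6% of the summed ATG8 TPM in CAPE, against 12.2%, 11.4% and 7.79% in DMSO, with no overlap. GABARAPL1 made up 12.2%, 11.5% and 11.002% in CAPE, against 14.1%, 14.6% and 5.59% in DMSO, where DMSO 3 was the lowest of all. The ratio of MAP1LC3B to GABARAPL1 in TPM was 1.602, 1.74 and 1.87 in CAPE and 0.871, 0.782 and 1.39 in DMSO. The summed ATG8 TPM was 474 ± 20.3 in CAPE and 524 ± 59.7 in DMSO (SD, n = 3 each), a difference smaller than the spread of the DMSO libraries.

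**Figure D2:**
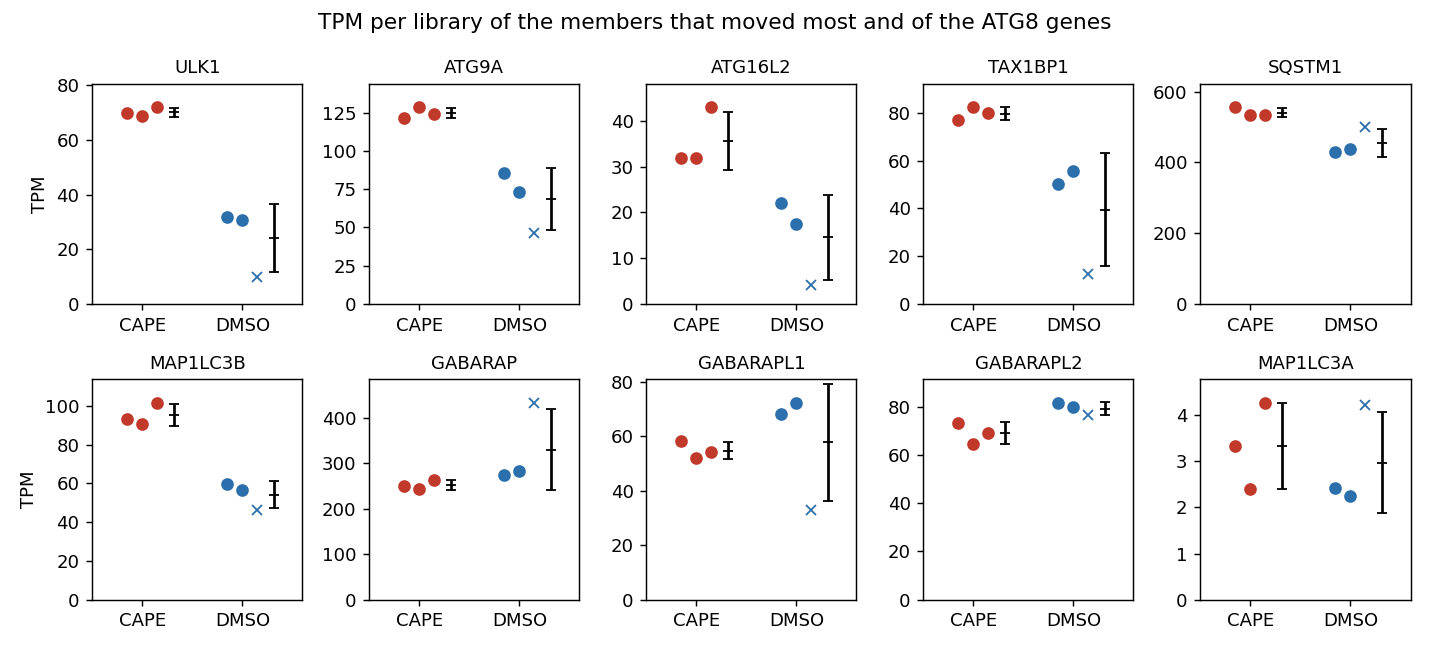
Each panel shows the TPM of 1 gene in each library, CAPE in red on the left and DMSO in blue on the right, with DMSO 3 as a cross; black bars give the mean and SD of 3 libraries. ULK1, ATG9A, ATG16L2, TAX1BP1, SQSTM1 and MAP1LC3B have all CAPE points above all DMSO points, and GABARAP and GABARAPL2 have all CAPE points below them.

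Of the 4 cargo receptors, 3 rose without DMSO 3, beside 20.4% of all genes. TAX1BP1, a receptor for ubiquitin-tagged protein aggregates and bacteria, had 126, 136 and 131 CPM in CAPE, against 84.5, 90.2 and 42.3 CPM in DMSO. CAPE was above DMSO throughout, and DMSO 3 was low. TAX1BP1 rose 1.49-fold without DMSO 3 (log2 fold change 0.58 ± 0.05 SE, edgeR adjusted p = 6.90e-07), and its log2 fold change with DMSO 3 was 0.86 ± 0.30 SE and did not pass. SQSTM1, also called p62, a ubiquitin-binding receptor that is itself broken down by autophagy, had 702, 680 and 707 CPM in CAPE and 580, 595 and 1508 CPM in DMSO. CAPE was above DMSO 1 and 2, and DMSO 3 was more than 2 times as high as any CAPE library.

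SQSTM1 rose without DMSO 3 (log2 fold change 0.24 ± 0.04 SE, edgeR adjusted p = 0.000149), while with DMSO 3 its log2 fold change was -0.36 ± 0.40 SE (edgeR adjusted p = 0.591). In TPM, SQSTM1 had 556, 533 and 533 in CAPE and 429, 436 and 500 in DMSO, with no overlap, and it had the highest TPM of all 36 members in every library. OPTN, a receptor in the removal of mitochondria and bacteria, had 34.8, 34.9 and 39.9 CPM in CAPE and 29.0, 28.7 and 42.1 CPM in DMSO. DMSO 3 was again the highest, and OPTN rose without it (log2 fold change 0.34 ± 0.08 SE, edgeR adjusted p = 0.00304), while with DMSO 3 the log2 fold change was 0.14 ± 0.20 SE and did not pass. NBR1, a partner of SQSTM1 in binding ubiquitin, had 123, 128 and 127 CPM in CAPE and 129, 145 and 120 CPM in DMSO, and did not pass (log2 fold change -0.12 ± 0.05 SE, edgeR adjusted p = 0.0947). The ratio of TAX1BP1 to NBR1 in TPM was 1.49, 1.57 and 1.59 in CAPE and 0.941, 0.990 and 0.647 in DMSO. Receptors summed to 702 ± 9.77 TPM in CAPE and 558 ± 11.5 TPM in DMSO (SD, n = 3 each), and the sum of DMSO 3 lay close to those of DMSO 1 and 2. Its make-up differed, as SQSTM1 was 91.3% of that sum in DMSO 3, against 77.4% and 76.5% in DMSO 1 and 2. NBR1, OPTN and TAX1BP1 were lower in TPM in DMSO 3 than in DMSO 1 and 2.

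Both MiT/TFE factors rose without DMSO 3 by similar amounts. TFE3 had 120, 117 and 118 CPM in CAPE and 97.8, 94.4 and 174 CPM in DMSO (log2 fold change 0.30 ± 0.05 SE, edgeR adjusted p = 0.000177). TFEB had 15.5, 13.3 and 14.4 CPM in CAPE and 11.2, 11.5 and 37.7 CPM in DMSO (log2 fold change 0.34 ± 0.11 SE, edgeR adjusted p = 0.0202). For both genes CAPE lay above DMSO 1 and 2 and below DMSO 3. With all 6 libraries the log2 fold changes were -0.05 ± 0.27 SE for TFE3 and -0.48 ± 0.50 SE for TFEB. Leaving out CAPE 1, DMSO 1 or DMSO 2 beside DMSO 3 ended the call for TFEB. The mRNA level does not measure the movement of these factors into the nucleus, which is how they are mainly controlled.

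Set side by side by role, without DMSO 3, the initiation complex had 1 member up and 0 down of 5, the 7 conjugation genes 2 up and 2 down, the ATG8 genes 1 up and 2 down, and the cargo receptors 3 up and 0 down of 4. The shares up were 20%, 28.6%, 20% and 75%, beside 20.4% of all genes. The shares down were 0%, 28.6%, 40% and 0%, beside 20.8%. With 4 to 7 genes per role, these counts are too small to set the roles apart. The median log2 fold change was 0.06 in the ULK1 complex, -0.13 in the conjugation genes, -0.06 in the ATG8 genes and 0.29 in the receptors, beside 0.00346 over all genes. With all 6 libraries these medians were 0.09, -0.12, -0.35 and 0.04. The ULK1 complex summed to 212 ± 2.59 TPM in CAPE and 154 ± 27.1 TPM in DMSO, and the conjugation genes to 281 ± 18.9 TPM in CAPE and 227 ± 76.9 TPM in DMSO (SD, n = 3 each). For the conjugation genes the difference was within the spread of the DMSO libraries, of which DMSO 3 was low at 139 TPM. In limma on log2(TPM + 1) without DMSO 3, ATG12, ATG4A, GABARAPL2 and TFEB, called on counts, did not pass (adjusted p 0.0677 to 0.186).

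**Figure D3:**
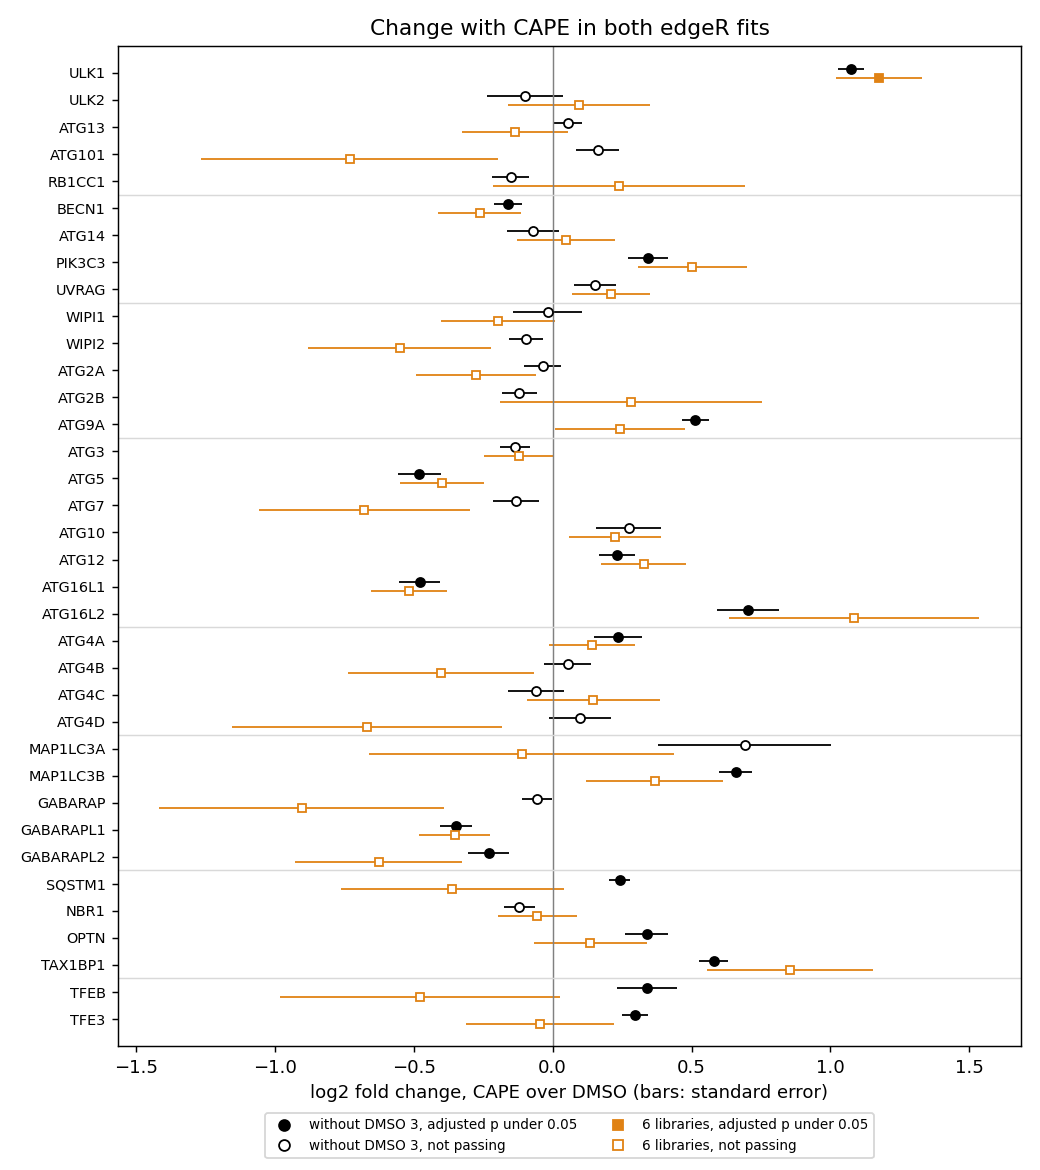
Points give the log2 fold change of CAPE over DMSO for each member, with bars of 1 standard error, in the edgeR fit without DMSO 3 (black circles) and with all 6 libraries (orange squares); filled symbols passed at an adjusted p under 0.05. The orange bars are wider in most genes, ULK1 is the only filled square, and SQSTM1, TFEB and TFE3 lie on opposite sides of 0 in the 2 fits.

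Across the members, the deviation of DMSO 3 from DMSO 1 and 2 went with transcript length. Over 36 genes, Spearman's rho between that deviation in log2 CPM and the log2 of counts per TPM was -0.54, a description over genes that share the same libraries. The highest deviations were those of ATG101 (1.84), GABARAP (1.77) and TFEB (1.72), and the lowest were those of ATG2B (-1.87), RB1CC1 (-1.76) and ATG16L2 (-1.70). ATG2B and RB1CC1 had the most counts per TPM of the 36, GABARAP the fewest, and ATG16L2 lay low although its counts per TPM were few. ULK1 deviated by -0.32 and GABARAPL1 by 0.02, while SQSTM1 deviated by 1.36. Whether length accounts for the deviation of any one gene was not tested.

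**Figure D4:**
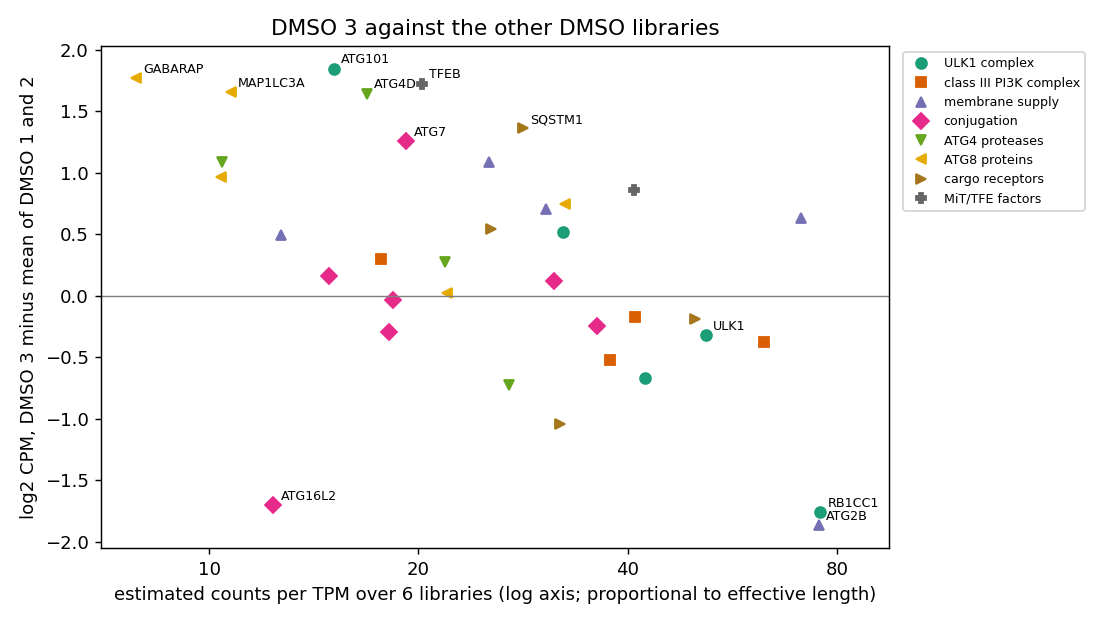
For each of the 36 members, the vertical axis gives log2 CPM in DMSO 3 minus the mean of DMSO 1 and 2, and the horizontal axis gives estimated counts per TPM on a log axis, which is proportional to effective transcript length. Symbols mark the role. Most genes with few counts per TPM lie above 0, while ATG16L2 lies at -1.70, and ATG12 and ATG3 lie slightly below 0 at -0.30 and -0.04.

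Beyond these 36, 83 other autophagy and lysosome genes were listed, of which 78 had enough counts to be tested. Without DMSO 3, 18 rose, or 23.1%, and 8 fell, or 10.3%, beside the 20.4% and 20.8% of all genes given above. Their median log2 fold change was 0.03. With all 6 libraries 4 rose (BNIP3, BNIP3L, PRKAG2 and RRAGD) and 0 fell in edgeR, while DESeq2 called 5 higher and 1 lower. Over all genes 1.49% rose and 0.456% fell in that edgeR fit. Among the genes not tested, TSC1 had 7, 7 and 1 counts in CAPE and 1, 6 and 0 in DMSO. TPP1, also not tested, had 4, 3 and 1 counts in CAPE and 1, 0 and 0 in DMSO. Whether either gene is hardly expressed or its symbol was assigned otherwise in the deposited data was not settled.

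Among 15 further receptors, 6 rose and 2 fell without DMSO 3, or 40% and 13.3%, beside 20.4% and 20.8% of all genes. BNIP3, a mitophagy receptor of the outer mitochondrial membrane, had 394, 385 and 394 CPM in CAPE, against 143, 161 and 210 CPM in DMSO (log2 fold change 1.36 ± 0.05 SE, edgeR adjusted p = 4.16e-11). Its relative BNIP3L, also called NIX, had 240, 233 and 247 CPM in CAPE, against 86.1, 99.2 and 69.8 CPM in DMSO (log2 fold change 1.37 ± 0.06 SE, edgeR adjusted p = 1.46e-10). For both, every CAPE library was above every DMSO library, and the log2 fold changes with DMSO 3 were 1.19 for BNIP3 (edgeR adjusted p = 0.0407) and 1.498 for BNIP3L (edgeR adjusted p = 0.0218). NCOA4, the receptor for ferritin, fell (log2 fold change -0.39 ± 0.04 SE), as did PHB2, an inner-membrane mitophagy receptor (log2 fold change -0.19 ± 0.04 SE). With DMSO 3 neither passed: the log2 fold changes were -0.43 for NCOA4 (edgeR adjusted p = 0.208) and -0.89 for PHB2 (edgeR adjusted p = 0.348).

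Of 17 other core and fusion genes tested, 4 rose and 3 fell without DMSO 3. These shares of 23.5% and 17.6% were near the 20.4% and 20.8% of all genes. WDR45B, a relative of the WIPI proteins also called WIPI3, rose (log2 fold change 0.53 ± 0.05 SE), as did NRBF2, a subunit of the PI3K complex (log2 fold change 0.48 ± 0.10 SE). For WDR45B, DMSO 3 at 187 CPM was above the CAPE libraries at 169, 167 and 174 CPM, and for NRBF2 it lay below them. VMP1, an endoplasmic reticulum protein needed for autophagosome formation, had 254, 279 and 296 CPM in CAPE and 440, 431 and 207 CPM in DMSO. CAPE was below DMSO 1 and 2 and above DMSO 3, and VMP1 fell without DMSO 3 (log2 fold change -0.66 ± 0.05 SE, edgeR adjusted p = 1.57e-07). PIK3R4, the subunit that anchors PIK3C3, fell as well (log2 fold change -0.43 ± 0.06 SE). Its DMSO 3 value of 50.6 CPM was below its CAPE values of 60.5, 59.6 and 54.0 CPM. With DMSO 3 none of these 4 passed, and the log2 fold changes were 0.28 for WDR45B, 0.52 for NRBF2, -0.38 for VMP1 and -0.25 for PIK3R4 (edgeR adjusted p 0.191 to 0.493).

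Of 21 upstream kinase and nutrient signalling genes tested, 5 rose and 1 fell without DMSO 3. The shares were 23.8% and 4.76%, beside 20.4% and 20.8% of all genes. PRKAG2, a regulatory subunit of the energy sensor AMPK, had 16.1, 16.9 and 16.8 CPM in CAPE, against 7.43, 8.20 and 7.60 CPM in DMSO, with DMSO 3 between DMSO 1 and DMSO 2 (log2 fold change 1.08 ± 0.11 SE, edgeR adjusted p = 1.66e-06, and 1.10 with all 6 libraries, edgeR adjusted p = 0.0256). RRAGA, a GTPase that recruits mTORC1 to the lysosome, rose without DMSO 3 (log2 fold change 0.81 ± 0.07 SE), although DMSO 3 at 87.9 CPM was above the CAPE libraries at 74.1, 65.8 and 75.7 CPM. MTOR, the kinase of that complex, fell (log2 fold change -0.22 ± 0.05 SE). Its DMSO 3 value of 152 CPM was below its CAPE values of 175, 177 and 169 CPM. With DMSO 3 neither passed, at log2 fold changes of 0.35 for RRAGA (edgeR adjusted p = 0.538) and -0.09 for MTOR (edgeR adjusted p = 0.748). RRAGD, a relative of RRAGA, was near its detection limit in DMSO, with 67, 40 and 45 counts in CAPE and 2, 6 and 4 counts in DMSO.

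Of 25 lysosome genes tested, 3 rose and 2 fell without DMSO 3, and none changed in that fit by 0.5 or more on the log2 scale. The shares of 12% and 8% were below the 20.4% and 20.8% of all genes. GAA and CTSD, a lysosomal glucosidase and protease, rose (log2 fold changes of 0.20 ± 0.06 SE and 0.18 ± 0.06 SE). ATP6V0E1, a subunit of the proton pump, and NPC2, a cholesterol carrier, fell (log2 fold changes of -0.19 ± 0.05 SE and -0.18 ± 0.07 SE). For GAA, CTSD, ATP6V0E1 and NPC2, DMSO 3 was above all other libraries, at 93.3, 315, 283 and 94.2 CPM. With it none of the 4 passed. The log2 fold changes were then 0.02 for GAA, -0.54 for CTSD, -0.87 for ATP6V0E1 and -0.70 for NPC2 (edgeR adjusted p 0.348 to 0.944).

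**Figure D5:**
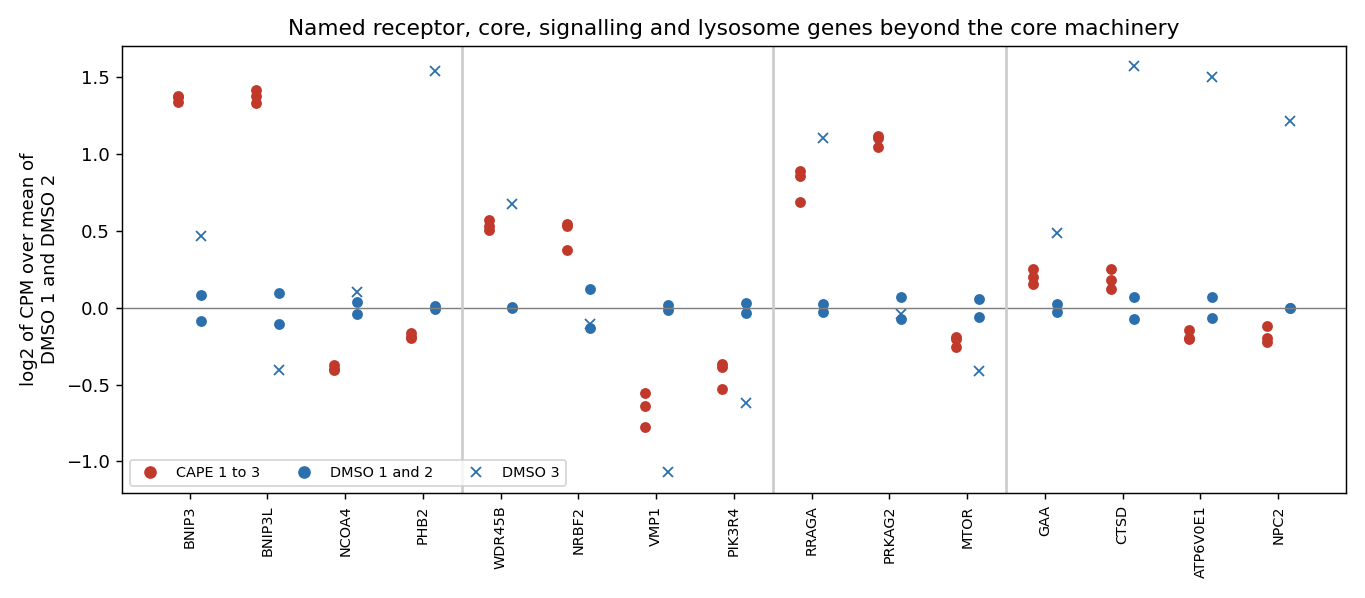
Each point is 1 library's CPM of 1 gene, as log2 of its ratio to the mean of DMSO 1 and 2, for the named receptor, core, signalling and lysosome genes in that order, with CAPE 1 to 3 in red, DMSO 1 and 2 as blue points and DMSO 3 as blue crosses. The red points of BNIP3, BNIP3L and PRKAG2 lie above 1, and those of the lysosome genes stay near 0.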

How the data were processed

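RNA from NCI-H446 cells, 3 CAPE and 3 DMSO mRNA libraries, was sequenced with paired reads. Per the submitters' processing notes, bcl2fastq and kallisto 0.46.1 were run against GRCh38, and the authors deposited estimated counts per gene, which are whole numbers as deposited. TPM per gene, scaled to transcript length, were deposited too, with library sums of 928267 to 947906. In 32 to 65 genes per library TPM was above 0 beside a count of 0. How transcripts were summed to genes, the annotation release and the use of strand are not given in these sources.

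The 36 genes, the lists and the tests were chosen with earlier results of these data known. Counts were filtered with filterByExpr and scaled with TMM factors (0.699 in DMSO 3, 1.07 to 1.09 elsewhere). They were tested with edgeR 4.0.16 in R 4.3.3, once with all libraries and once without DMSO 3. The test was the quasi-likelihood F test, with group as the only term and Benjamini-Hochberg over all genes. CPM use TMM-scaled library sizes, and an SE is the log2 fold change divided by the square root of F. For the members, deviations of DMSO 3 added 0.1 CPM before the log. The correlations between libraries and the 2-fold counts of DMSO 3 over all genes used log2 CPM with a prior count of 2 instead. Alternatives used DESeq2 1.42.0, limma 3.58.1 on log2 TPM (pseudocount 1 or 0.1) and others given at the end. Values in every library were to be given for members that passed with all libraries, or without DMSO 3 at a log2 fold change of at least 0.5, and for ULK1 and the ATG8 genes; other members' values were added. Of each further list, the 2 passing members per direction with the smallest p without DMSO 3 were named, and RRAGD was named after its values were seen. The test was checked on simulated data. Promoter sequences are those of RefSeq, of which 4 members had none.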

Additional observations from a re-analysis of the deposited data

How the results depend on the processing

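With all 6 libraries, 1 member was called. DESeq2 called 2 members (1 higher, 1 lower), limma on log2(TPM + 1), on log2(TPM + 0.1) and without a filter called 0 (6 with an unadjusted p under 0.05 in each, all higher), and voom with quality weights, which gave DMSO 3 a weight of 0.0200 against 2.02 to 2.46 for the others, called 17. Leaving out 1 library gave 0 to 17 members: 17 without DMSO 3, and 0 without any other, where edgeR gave an unadjusted p under 0.05 for 1 to 5. Over all genes, limma on log2 TPM called 64 to 120 with 6 libraries. Leaving out a library other than DMSO 3 called 0 to 17 of all genes in edgeR. The count of other autophagy and lysosome genes was 4 with all 6 libraries and 26 without DMSO 3. SQSTM1, TFEB and TFE3 turned to positive log2 fold changes with quality weights (0.24, 0.33 and 0.30), and over the fits that left out 1 library they ranged from -0.60 to 0.24, from -0.78 to 0.34 and from -0.21 to 0.30. Without DMSO 3, 17 members were called, and limma called 11 on log2(TPM + 1), 11 on log2(TPM + 0.1) and 9 with no filter, while the other alternatives called 14 to 18. On log2 TPM with all 6 libraries, the median of all genes moved to 0.33, against -0.01 in edgeR. ULK1, ATG9A, ATG5, MAP1LC3B, GABARAPL1, SQSTM1, OPTN, TAX1BP1 and TFE3 were called in each of the 15 alternatives run without DMSO 3. Where these left 1 DMSO library, it was assumed to vary like the CAPE libraries. The cause of these changes was not tested.

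Same-numbered CAPE and DMSO libraries had deviations from their group means that correlated at -0.19, 0.14 and -0.01. With DMSO 3 so far from DMSO 1 and 2, these values cannot show whether same-numbered libraries were paired. The labels do not say so either. With the replicate block, edgeR called 0 members with all 6 libraries (4 with an unadjusted p under 0.05, and 0 of all genes adjusted) and 15 without DMSO 3, where ATG4A and TFEB were no longer called. ULK1 had a log2 fold change of 1.18 (adjusted p = 0.222) and of 1.06 (adjusted p = 2.90e-07) in these.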
